A study of Mus musculus with 23 samples.

Results

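Expression of 8 genes of transforming growth factor beta (TGF-beta) and bone morphogenetic protein (BMP) signalling was followed through myeloid progenitors and MLL-AF9 leukaemias with and without C/EBPa. The genes were the type I and type II TGF-beta receptors Tgfbr1 and Tgfbr2, the inhibitory SMADs Smad6 and Smad7, the SMAD corepressor Skil, and the inhibitors of DNA binding Id1, Id2 and Id3. A member was taken as the probe set whose only annotated symbol was that gene, and each of the 8 had 1 such probe set. On GRCm38.p6, Tgfbr1 is at chr4:47353222-47414926, Tgfbr2 at chr9:116087695-116175363, Smad6 at chr9:63953076-64022085, Smad7 at chr18:75367365-75395935 and Skil at chr3:31095058-31122923. Id1 is at chr2:152736251-152737410, Id2 at chr12:25093799-25096092 and Id3 at chr4:136143822-136145392. They were 8 of 19937 genes measured on 23 Affymetrix arrays of mouse bone marrow cells in 9 groups. Values are log2 expression levels, in which a difference of 1 is a 2-fold difference, and levels are comparable between arrays for a gene but not between genes.

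All donor mice carried floxed C/EBPa alleles and received 3 injections of poly I:C, a synthetic double-stranded RNA that induces the interferon-driven Mx1 promoter. Knockout (KO) donors were Mx.1-Cre+ C/EBPa f/f and control donors were Mx.1-Cre- C/EBPa f/f, so the controls lacked Cre as well as the deletion, and Mx1-Cre acts in many cell types of the marrow. Leukaemic granulocyte-macrophage progenitors (L-GMPs) were profiled from KO secondary recipients (2 arrays), a KO primary recipient (1 array), control secondary recipients (2 arrays) and control primary recipients (2 arrays). KO cells infected with the MSCV-MLL-AF9-IRES-GFP retrovirus gave GFP+ common myeloid progenitors (CMPs; 3 arrays) and GFP+ KSLs, the Lin- Sca-1+ c-kit+ cells enriched for stem cells (2 arrays), from recipients in which no leukaemia had developed. CMPs of KO mice (4 arrays), granulocyte-macrophage progenitors (GMPs) of controls (3 arrays) and CMPs of controls (4 arrays) were taken 5 days after poly I:C. The cells to be transduced were cultured in stem cell factor and thrombopoietin at 100 ng/ml each and IL-3 at 10 ng/ml, and were placed in lethally irradiated congenic recipients. The KO leukaemia arose after recipients had been injected with vectors expressing IL-3 and GM-CSF, which the control leukaemias are not labelled as receiving, so loss of C/EBPa and these cytokines cannot be told apart between L-GMPs. The 3 KO L-GMP arrays are 1 leukaemia in its primary and 2 secondary recipients, and the labels do not say from how many control leukaemias the control L-GMPs came. Nothing states that replicate arrays came from separate donors, so the p-values cover only the variation among these arrays, which may be technical.

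TGF-beta and its relatives bind a type II receptor, which activates a type I receptor, and the receptor then phosphorylates SMADs that enter the nucleus with Smad4. Among the genes that SMADs switch on are the pathway's own brakes: Smad7, which blocks the activated type I receptor, Smad6, which chiefly restrains BMP signalling, and Skil, whose product SnoN recruits corepressors to SMAD complexes. Id1, Id2 and Id3 are classic BMP and SMAD targets, and their products hold E proteins and related basic helix-loop-helix factors away from DNA. In marrow, TGF-beta keeps stem cells quiescent, and Id proteins influence the choice between lymphoid and myeloid fates.

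The promoters of Id3 and Tgfbr2, whose levels rose together in KO CMPs, are shown beside that of Smad6, which did not pass the test there. RefSeq windows of GRCm38.p6, from 250 bases before to 50 after an annotated start, were used here for 5 of the 8 members. They made up 6 windows, including both of Tgfbr1. No window was used for Id1, or for Skil and Smad7, which also rose in KO CMPs. Id3 is at chr4:136143572-136143871 on the plus strand, Tgfbr2 at chr9:116175314-116175613 on the minus strand and Smad6 at chr9:64022010-64022309 on the minus strand. Capitals mark CAGAC, the SMAD-binding box, on either strand (where GTCTG is its complement), or the 8-base inverted repeat GTCTAGAC, which holds no CAGAC.
Id3: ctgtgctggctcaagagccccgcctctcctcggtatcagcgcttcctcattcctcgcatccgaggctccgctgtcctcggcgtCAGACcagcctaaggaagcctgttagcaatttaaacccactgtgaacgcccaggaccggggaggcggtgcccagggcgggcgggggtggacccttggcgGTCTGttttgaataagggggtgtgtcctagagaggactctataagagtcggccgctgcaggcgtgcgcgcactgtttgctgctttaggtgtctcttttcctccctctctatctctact
Tgfbr2: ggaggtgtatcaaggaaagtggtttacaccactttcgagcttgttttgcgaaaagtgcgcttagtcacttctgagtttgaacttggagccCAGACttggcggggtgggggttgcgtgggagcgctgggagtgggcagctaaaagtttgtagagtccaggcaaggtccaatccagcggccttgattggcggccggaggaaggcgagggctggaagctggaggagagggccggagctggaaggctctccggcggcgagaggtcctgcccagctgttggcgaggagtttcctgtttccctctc
Smad6: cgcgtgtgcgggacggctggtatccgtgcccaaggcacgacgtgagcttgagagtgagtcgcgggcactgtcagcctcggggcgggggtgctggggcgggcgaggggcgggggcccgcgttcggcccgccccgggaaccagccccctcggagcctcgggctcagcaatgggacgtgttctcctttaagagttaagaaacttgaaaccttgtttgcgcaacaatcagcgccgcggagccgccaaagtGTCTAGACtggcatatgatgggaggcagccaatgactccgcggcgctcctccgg
The Id3 window held CAGAC 167 and 68 bases before its start, and the Tgfbr2 window held it 160 bases before. CAGAC was in 3 of the 6 member windows, against 49.6% of 32851 promoters of this length. The other was a window of Tgfbr1, which did not pass the test in KO CMPs. GTCTAGAC began 4 bases before the Smad6 start and was in 0.213% of all promoters. The GC-rich BMP element GGCGCC was in 2 of the 6 windows (Tgfbr1 and Id2), against 11.9% of all promoters. The E-box CANNTG was in 4 of the 6, against 72.3%, and the C/EBP-like letters TTGCNNAA were in 2 (Smad6 and Tgfbr2), against 10.8%. All motifs were read on both strands, and matches of different motifs shared no bases. These matches describe the letters of the windows and show no binding.

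Array values had a floor of 3, and no member was at the floor on any array. The deleted gene Cebpa was at 4.33 to 5.55 on the 12 KO arrays, against 7.19 to 7.96 on the 11 control arrays, with no overlap. The median distance of a gene from its group mean was 0.15 to 0.161 in the MLL-AF9 CMPs, the MLL-AF9 KSLs and the primary control L-GMPs, against 0.0745 to 0.0762 in CMPs and GMPs. The 2 arrays of the recipient numbered 9 (1 of CMPs, 1 of KSLs) stood apart: the summed log2 level of 6 mast cell and basophil genes was 57.02 and 59.44 there, against 34.86 to 35.77 on the 3 other MLL-AF9 KO progenitor arrays. The high-affinity IgE receptor gene Ms4a2 was at 9.11 and 9.88 on these arrays and at 3.88 to 4.44 on the other 3. Prss34 of the same list was not raised, at 4.42 and 4.66 against 4.60 to 4.98. The MLL-AF9 CMPs of recipient 4 stood apart in 5 megakaryocyte genes, with a summed level of 47.42 against 32.34 and 32.5 on the other MLL-AF9 CMP arrays. Results that rest on recipient 9 are given with and without its arrays. In bulk samples, fewer cells of a type and less RNA per cell cannot be told apart.

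The 8 genes differed widely in how far their group means spread. The range from the highest to the lowest group mean was 3.64 for Id2, 2.80 for Skil, 2.71 for Id3, 2.33 for Id1, 2.02 for Tgfbr2, 1.82 for Smad7, 1.07 for Tgfbr1 and 0.47 for Smad6, against a median of 0.69 over all genes. Skil, Id3, Smad7 and Tgfbr2 had their highest mean in KO CMPs, Id1 in control secondary L-GMPs, Id2 and Tgfbr1 in MLL-AF9 KO KSLs and Smad6 in control GMPs. Id2 also varied most within groups, with a pooled SD of 1.16 against a median of 0.20 over all genes.

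**Figure D1:**
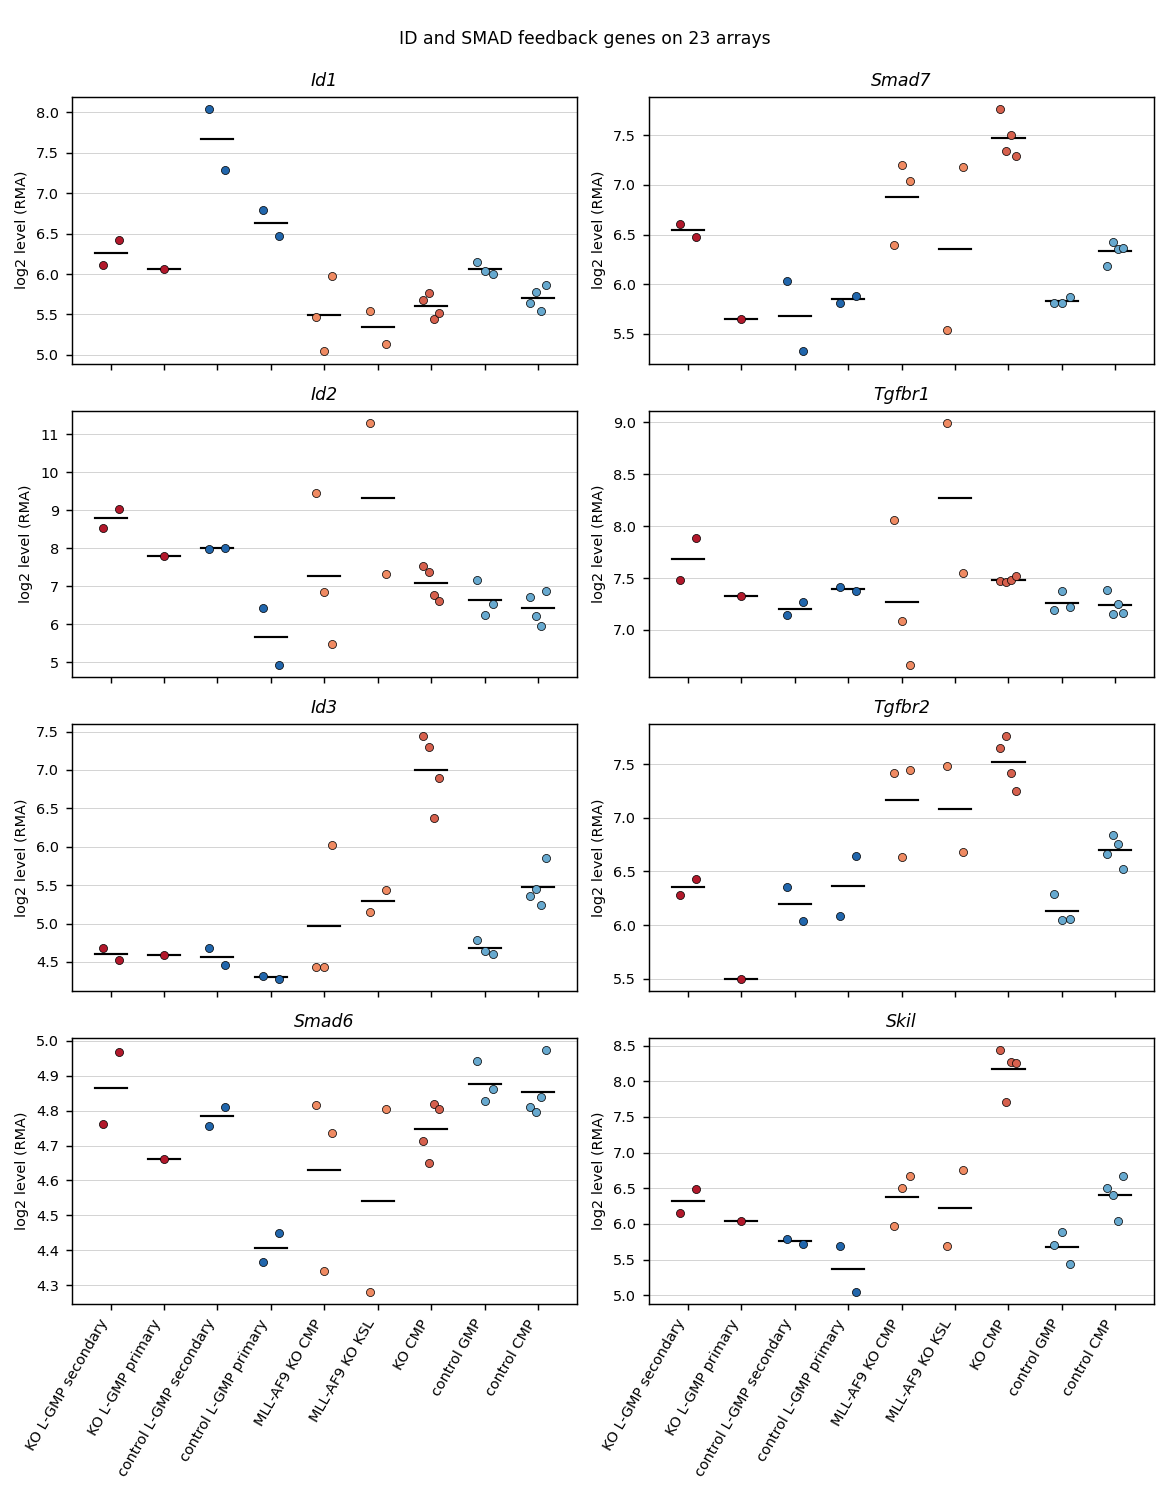
Log2 levels of the 8 genes (y axes, RMA values, a separate scale per gene) on 23 arrays in 9 groups (x axis); points are arrays and bars are group means. Skil, Id3, Smad7 and Tgfbr2 were highest in KO CMPs, Id1 was highest in control secondary L-GMPs, and Id2 and Tgfbr1 spread widely among the MLL-AF9 KO arrays.

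The order of group means is a description of these arrays. For Skil, KO CMPs averaged 8.17, followed by 8 groups between 6.40 (control CMPs) and 5.36 (control primary L-GMPs), in which no step between neighbours exceeded 0.31. For Id3, KO CMPs averaged 7.003 and control CMPs 5.48, then came MLL-AF9 KO KSLs at 5.29, MLL-AF9 KO CMPs at 4.97 and control GMPs at 4.68, and the L-GMP groups lay between 4.60 and 4.30. Below KO CMPs, neighbours in the Skil order overlapped in their arrays except that the KO primary L-GMP array at 6.04 lay above the control secondary L-GMPs at 5.72 and 5.79. Neighbours overlapped too in the Id3 order from control CMPs down to control secondary L-GMPs. For Smad7, KO CMPs averaged 7.47 and MLL-AF9 KO CMPs 6.88, the middle of the order was KO secondary L-GMPs at 6.54, MLL-AF9 KO KSLs at 6.36 and control CMPs at 6.33, and the lowest 4 groups lay between 5.85 and 5.65. For Tgfbr2, KO CMPs at 7.52, MLL-AF9 KO CMPs at 7.17, MLL-AF9 KO KSLs at 7.08 and control CMPs at 6.70 stood above control GMPs and every L-GMP group, which lay between 6.37 and 5.50. Neighbours overlapped throughout the Tgfbr2 order except at its end, between control GMPs and the KO primary L-GMP array.

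The other 4 genes had orders of their own. For Id1, control secondary L-GMPs at 7.67 and control primary L-GMPs at 6.63 came first, then KO secondary and KO primary L-GMPs at 6.26 and 6.06 and control GMPs at 6.06, and the CMP and KSL groups followed between 5.71 and 5.34. The upper 2 Id1 groups overlapped neither each other nor the groups below. For Id2, MLL-AF9 KO KSLs at 9.32, KO secondary L-GMPs at 8.78 and control secondary L-GMPs at 7.999 were highest, and control primary L-GMPs at 5.68 were lowest. For Tgfbr1, MLL-AF9 KO KSLs at 8.27 and KO secondary L-GMPs at 7.68 overlapped, and the other 7 groups lay within 0.28 of each other, between 7.49 and 7.20. For Smad6, all groups lay between 4.88 and 4.41, with no step between neighbours above 0.13.

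Skil, Id3, Smad7 and Tgfbr2 rose in KO CMPs relative to control CMPs, a comparison that asks what loss of C/EBPa does to progenitors before leukaemia. Skil was 3.40-fold, Id3 2.88-fold, Smad7 2.21-fold and Tgfbr2 1.77-fold higher. These 4 of the 8 members rose and 0 fell at a Benjamini-Hochberg adjusted p below 0.05 in limma's moderated test over all genes, where 4.91% of genes passed, 2.27% rose and 2.64% fell. The median log2 change was 0.73 over the members and 0 over all genes. The arrays of the compared groups did not overlap for 5 of the 8 members, against 21.1% of all genes.

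Among the receptors, Tgfbr2, which binds the ligand, was at 7.65, 7.76, 7.42 and 7.25 in KO CMPs, against 6.67, 6.84, 6.75 and 6.52 in control CMPs. Every KO array was above every control array. Its log2 change was 0.83 ± 0.20 (SE; adjusted p = 0.0251). Tgfbr1, the signalling partner, was at 7.47, 7.47, 7.48 and 7.52 in KO CMPs, against 7.38, 7.16, 7.25 and 7.16 in control CMPs. These arrays did not overlap either, but the change was 0.25 ± 0.27 (adjusted p = 0.846), with an SE that draws on the wide spread of Tgfbr1 in the MLL-AF9 groups. With the 8 CMP arrays fitted alone the SE was 0.0554 and the adjusted p 0.0242.

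Of the inhibitory SMADs, Smad7 was at 7.76, 7.34, 7.50 and 7.29 in KO CMPs, against 6.18, 6.43, 6.36 and 6.36 in control CMPs. The lowest KO array lay above the highest control array, and the log2 change was 1.14 ± 0.26 (adjusted p = 0.0184). Smad6 was at 4.71, 4.65, 4.82 and 4.80 in KO CMPs, against 4.81, 4.80, 4.84 and 4.97 in control CMPs. Its values overlapped, and the interval of the change was -0.35 to 0.13 (95%).

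Skil had the largest change of the members, at 8.44, 7.71, 8.27 and 8.25 in KO CMPs, against 6.51, 6.41, 6.04 and 6.66 in control CMPs. The 2 groups were separated by more than the span of either, and the log2 change was 1.76 ± 0.24 (adjusted p = 0.000447). Skil ranked 77th of all genes by p in this comparison.

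The ID genes differed from one another in this comparison. Id3 was at 7.44, 7.30, 6.37 and 6.90 in KO CMPs, against 5.35, 5.45, 5.24 and 5.86 in control CMPs, with no overlap and a change of 1.53 ± 0.30 (adjusted p = 0.00633). Id2 was at 7.53, 7.38, 6.78 and 6.63 in KO CMPs, against 6.72, 6.21, 5.96 and 6.87 in control CMPs. Its groups overlapped, and the interval of its change, -1.01 to 2.28, was too wide to show a difference of the size seen for Id3. Id1 was at 5.68, 5.76, 5.44 and 5.51 in KO CMPs, against 5.64, 5.78, 5.54 and 5.87 in control CMPs, a change of -0.11 ± 0.19 (adjusted p = 0.961).

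The Skil and Id3 calls held under each alternative run, including each array left out. Smad7 lost its call without control CMP array 1 (adjusted p = 0.055), control array 3 (0.0507) or KO array 1 (0.0745), and Tgfbr2 without any of control arrays 1, 3 and 4 or KO arrays 1 and 2 (0.058 to 0.0894). High Xist, a mark of female cells, was found on 1 of 4 KO CMP and 3 of 4 control CMP arrays, and with it as a covariate the adjusted p was 0.0715 for Smad7 and 0.0583 for Tgfbr2.

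Other cell type genes moved in the same comparison. The summed level of 6 monocyte and macrophage genes was 27.59 to 32.56 in KO CMPs, against 47.8 to 49.98 in control CMPs. That of 6 mast cell and basophil genes was 34.69 to 41.72 in KO CMPs, against 44.78 to 50.22 in control CMPs. That of 6 CMP and GMP genes was 48.92 to 52.17 against 55.89 to 58.74, and that of 6 mature neutrophil genes was 26.55 to 29.03 against 29.66 to 37.19. By gene, 5 monocyte and macrophage and 2 CMP and GMP genes fell, and 0 mast cell and basophil or mature neutrophil genes passed. Cpa3 of the mast cell and basophil list was higher in KO CMPs (10.79 to 11.03 against 9.25 to 10.10). Kit of the CMP and GMP list was also higher (9.45 to 9.78 against 9.12 to 9.37). The 5 megakaryocyte genes summed to 35.03 to 39.56 in KO and 34.21 to 36.02 in control CMPs, and no listed marker was at the floor throughout. A list of 11 immediate early genes, added after the data were seen, summed to 102.9 to 108.7 in KO CMPs, against 94.03 to 104.2 in control CMPs. Their part in the rise of Skil, Id3, Smad7 and Tgfbr2 was not tested.

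Of 68 other measured genes of the pathway, in 6 lists, 6 rose and 2 fell in KO CMPs, or 11.8%, where 4.91% of all genes passed, 2.27% rose and 2.64% fell. Among other TGF-beta and BMP targets, 2 of 11 rose and 1 fell: Klf10, a TGF-beta-inducible early gene, by 1.65 ± 0.17 (adjusted p = 2.06e-05), and Tsc22d1 by 1.03 ± 0.27 (0.0411), while the matrix protein gene Tgfbi fell by 1.56 (0.00972). Among 9 SMAD signal transducers 3 rose and 0 fell. These were Smad3, which carries TGF-beta signals, by 0.59, the common partner Smad4 by 0.36, and Trim33, which competes with Smad4 for activated SMADs, by 0.46. Ppm1a, a phosphatase of activated SMADs, was the sole riser of 14 other negative regulators and corepressors, by 0.59. Acvr1, a type I receptor of the family, fell by 0.49 and was the sole change among 12 other receptors. None of 11 ligands and none of 11 E proteins and basic helix-loop-helix partners passed the test, with median log2 changes of 0.10 and 0.01.

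Klf10 was the gene most like Skil across the groups. Over the 9 group means, Pearson's r between them was 0.980, the highest among 4528 genes searched. Klf10 was at 8.75, 8.77, 8.77 and 8.67 in KO CMPs, against 7.27, 7.03, 6.88 and 7.19 in control CMPs. On all other arrays Klf10 was at or below 7.68 and Skil at or below 6.76.

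**Figure D2:**
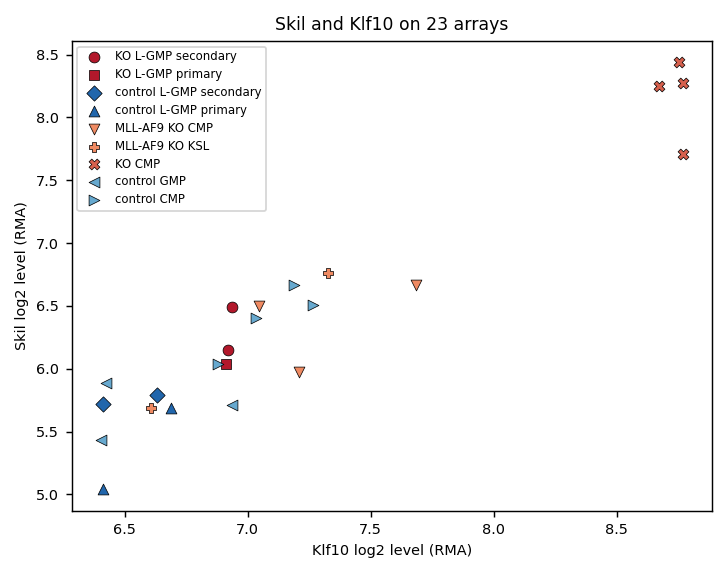
Log2 level of Skil (y axis) against that of Klf10 (x axis) on 23 arrays, with a marker for each of 9 groups. The 4 KO CMP arrays lie apart at upper right, with Klf10 at 8.67 to 8.77 and Skil at 7.71 to 8.44.

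The other members' closest genes by the same measure were Cnrip1 (0.975) and Ldb1 (0.973), a partner of LIM-domain factors, for Tgfbr2, Fbxw7 (0.918) and Nmb (0.909) for Tgfbr1, and Qrsl1 (0.978) and Inpp5f (0.973) for Smad6. For Smad7 they were Tgif1 (0.962), a SMAD corepressor, and Diaph1 (0.960). For the ID genes they were Camp (0.943) and Chil3 (0.940), neutrophil genes, for Id1, Rbl2 (0.946) and Serpinb6a (0.935) for Id2, and Spty2d1 (0.984) and Nol4l (0.965) for Id3. Among the members, r was 0.945 between Id3 and Skil, 0.882 between Smad7 and Skil, 0.874 between Smad7 and Tgfbr2 and 0.813 between Id3 and Smad7. Id1 had r between -0.61 and 0.08 with each of the other members. These 9 means include KO CMPs, which stand far from the rest, and groups that share donors or recipients, so the values are descriptive.

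In control GMPs relative to control CMPs, the step at which C/EBPa is normally required, 0 of the 8 members passed the test, where 1.05% of genes did (209 of 19937; 1569 at an unadjusted p below 0.05). The 4 genes that rose in KO CMPs had negative changes. Skil was at 5.71, 5.89 and 5.43 in GMPs, against 6.04 to 6.66 in control CMPs (change -0.73, adjusted p = 0.348). Id3 was at 4.78, 4.64 and 4.61 in GMPs, against 5.24 to 5.86 in control CMPs (-0.80, adjusted p = 0.471). Tgfbr2 was at 6.29, 6.05 and 6.06 in GMPs, against 6.52 to 6.84 (-0.56, 0.432), and Smad7 at 5.81, 5.82 and 5.88, against 6.18 to 6.43 (-0.50, 0.818). With the CMP and GMP arrays fitted alone, Smad7 (0.025) and Tgfbr2 (0.0403) passed. The GMP and CMP arrays did not overlap for these 4 genes or for Id1, which was higher in GMPs at 6.15, 6.03 and 5.99, against 5.54 to 5.87. That is 5 of 8 members, against 16.3% of all genes. The comparison shares its control CMP arrays with that of KO CMPs. Cell type sums also separated GMPs from control CMPs. The erythroid genes summed to 27.89 to 29.45 in GMPs against 37.43 to 42.39, and the megakaryocyte genes to 26.71 to 28.84 against 34.21 to 36.02. The monocyte and macrophage genes summed to 50.93 to 55.96 against 47.8 to 49.98, and the mature neutrophil genes to 42.38 to 45.3 against 29.66 to 37.19. The immediate early genes summed to 84.3 to 88.27 against 94.03 to 104.2. The part of these genes in the member changes was not tested. Of the 68 other pathway genes 1 changed: Tsc22d1, a TGF-beta-stimulated gene, fell by 1.81 (adjusted p = 0.00551).

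Between L-GMPs with and without C/EBPa, Id1 was the sole member to change, and it fell in KO L-GMPs. That is 1 of 8, where 3.27% of genes passed and 1.16% fell. Id1 was at 6.11 and 6.42 in KO secondary and 6.06 in KO primary L-GMPs, against 8.04 and 7.29 in control secondary and 6.80 and 6.46 in control primary L-GMPs. All KO arrays were below all control arrays. The log2 change was -0.99 ± 0.21 (adjusted p = 0.0170). Id1 lost its call with the 3 KO arrays averaged to the 1 leukaemia they represent (0.321), with these L-GMP arrays fitted alone (0.266), with high Xist as a covariate (0.103), without control secondary array 1 (0.0517) and without KO secondary array 1 (0.0623). The Id1 call was kept under 9 of 15 alternatives, and no gene was called with a replicate block. High Xist was found on 3 of 3 KO and 1 of 4 control L-GMP arrays. The 6 mature neutrophil genes summed to 34.92 to 43.48 in KO L-GMPs, against 36.79 to 48.22 in control L-GMPs, which overlapped. The summed levels of 4 other lists did not overlap. They were 28.28 to 30.51 in KO against 20.47 to 22.15 in control L-GMPs for 4 stem cell genes. For 6 mast cell and basophil genes they were 31.1 to 32.17 against 35.34 to 38.5. For 5 erythroid genes they were 29.47 to 30.57 against 25.83 to 29, and for 5 lymphocyte and NK genes 31.5 to 32.58 against 28.44 to 31.23. Few of these genes passed: 2 stem cell genes rose, 1 mast cell and basophil gene fell, and 1 erythroid and 1 lymphocyte or NK gene rose. The median log2 changes of these lists were 1.79, -0.27, 0.01 and -0.12. In the mast cell and basophil list, Cpa3 was at 4.65 to 5.75 in KO and 8.65 to 10.61 in control L-GMPs. Mcpt8 was at 8.53 to 9.47 and 7.30 to 9.21. The part of these genes' cells in the Id1 level was not tested.

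Skil in L-GMPs was at 6.15 and 6.49 in KO secondary and 6.04 in KO primary recipients, against 5.79 and 5.72 in control secondary and 5.69 and 5.04 in control primary recipients. The groups did not overlap, as for 2 of 8 members against 13.9% of all genes, but the change of 0.62 ± 0.27 did not pass (adjusted p = 0.221). Id3 was near its lowest levels on all 7 arrays, at 4.52 to 4.68 in KO and 4.28 to 4.68 in control L-GMPs. Tgfbr2 was at 6.28, 6.43 and 5.50 in KO L-GMPs, against 6.35, 6.04, 6.09 and 6.65 in control L-GMPs, a change of -0.35 ± 0.22 (adjusted p = 0.418). Smad7 was at 6.61, 6.47 and 5.65 in KO L-GMPs, against 6.03, 5.32, 5.82 and 5.88 in control L-GMPs (0.33 ± 0.30, adjusted p = 0.585). For both Tgfbr2 and Smad7, the KO primary array was lower than the KO secondary arrays. Id2 was at 8.53, 9.04 and 7.79 in KO L-GMPs, against 7.98, 8.01, 6.43 and 4.93 in control L-GMPs, with an interval of the change from -0.39 to 3.29. Tgfbr1 and Smad6 changed by 0.20 and 0.17, both within overlapping arrays. None of the 68 other pathway genes passed the test between KO and control L-GMPs in limma, where 3824 genes had an unadjusted p below 0.05.

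The effect of the knockout on Tgfbr2 differed between L-GMPs and CMPs. The change in L-GMPs minus that in CMPs was -1.18 ± 0.30 (adjusted p = 0.0475), where 2.80% of genes passed and 0.782% were negative. For Id3 the difference was -1.37 ± 0.44 (0.121), for Skil -1.15 ± 0.36 (0.107), for Id1 -0.88 ± 0.28 (0.117) and for Smad7 -0.81 ± 0.40 (0.327), and these did not pass. With the compared arrays alone Id3 (0.0283) and Skil (0.0403) passed, and Id1 passed with array weights (0.0439). Without the 1 KO primary L-GMP array, at 5.50 for Tgfbr2, the Tgfbr2 difference was -0.75 (adjusted p = 0.239), and it lost its call without any of 13 arrays taken singly, with KO L-GMPs averaged to 1 sample (0.36) and with high Xist as a covariate (0.156). Klf10 was the sole pathway gene with a difference, at -1.26 ± 0.25 (adjusted p = 0.011).

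**Figure D3:**
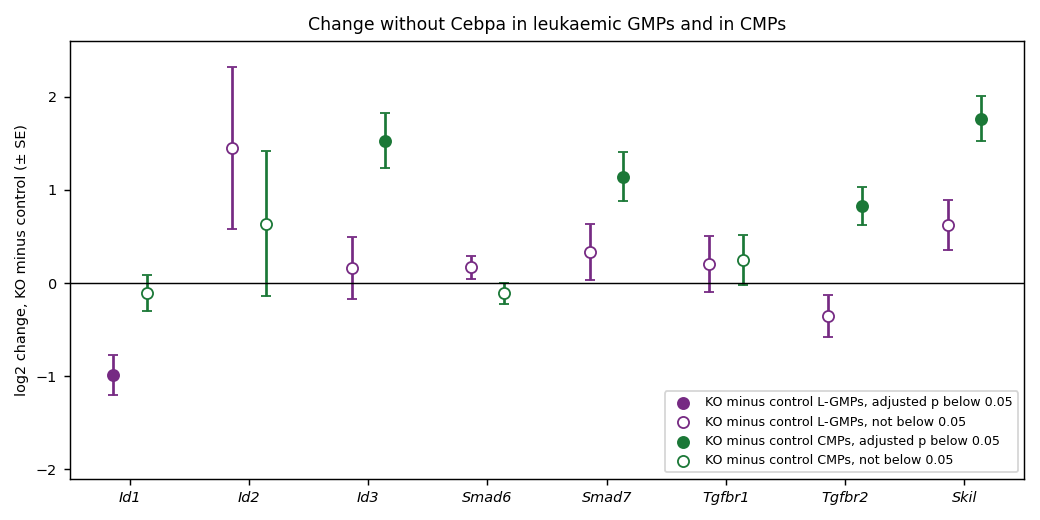
Log2 change, KO minus control, of each of the 8 genes in L-GMPs (purple) and in CMPs (green), with bars of 1 SE; filled points have an adjusted p below 0.05. Skil, Id3, Smad7 and Tgfbr2 are filled and above 0 in CMPs, and Id1 is filled and below 0 in L-GMPs.

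Id1 rose in control L-GMPs relative to both groups they were set against, and in KO L-GMPs relative to the MLL-AF9 KO progenitors. In control L-GMPs it rose relative to the MLL-AF9 KO progenitors without leukaemia by 1.73 ± 0.18 (3.32-fold; adjusted p = 6.39e-06), relative to control GMPs by 1.09 ± 0.20 (0.00194), and in secondary relative to primary control L-GMPs by 1.03 ± 0.27 (0.0277). The background was high: 19.0%, 25.3% and 7.70% of genes passed in these comparisons, in which 4, 1 and 1 of the 8 members did, and 8.51%, 10.6% and 4.04% rose. Control L-GMP and control GMP arrays did not overlap for Id1 and Smad6, or 2 of 8 members, against 30.8% of all genes. In the MLL-AF9 KO progenitors Id1 was at 5.46, 5.04 and 5.98 in CMPs and 5.54 and 5.14 in KSLs, below every control L-GMP array. Cell type genes differed too, without overlap: in control L-GMPs the monocyte and macrophage genes summed to 49.37 to 53.77, against 26.64 to 32.16 in these progenitors, the mature neutrophil genes to 36.79 to 48.22 against 28.88 to 32.78, the erythroid genes to 25.83 to 29 against 34.46 to 44.87 and the megakaryocyte genes to 24.85 to 26.85 against 30.55 to 47.42. The CMP and GMP genes summed to 54.19 to 61.13 in control L-GMPs, against 39.58 to 48.26 in the progenitors. In KO L-GMPs the monocyte and macrophage, mature neutrophil and erythroid sums were 51.91 to 52.43, 34.92 to 43.48 and 29.47 to 30.57, also apart from the progenitors. The stem cell sum of KO L-GMPs was higher (28.28 to 30.51 against 17.9 to 27.38), as was the CMP and GMP sum (59.56 to 60.41). Their mast cell and basophil sum (31.1 to 32.17 against 34.86 to 59.44) and megakaryocyte sum (25.84 to 26.41) were lower, all without overlap. The 11 immediate early genes summed to 89.98 to 95.83 in KO L-GMPs, against 100.3 to 107.9 in the progenitors. Against control GMPs, the mast cell and basophil genes of control L-GMPs summed to 35.34 to 38.5, against 44.78 to 52.42. The immediate early genes summed to 89.43 to 101.6 in control L-GMPs, which overlapped the progenitors, against 84.3 to 88.27 in control GMPs. The part of these cell types and genes in the Id1 levels was not tested. KO L-GMPs were also above these progenitors, by 0.74 ± 0.20 (adjusted p = 0.0224; 13.2% of genes passed and 7.27% rose). Id1 passed there under 12 of 17 alternatives. That call was lost with the KO L-GMP arrays averaged to 1 sample (0.203), with the arrays compared fitted alone (0.313), and without KO secondary array 2 (0.0848) or MLL-AF9 KSL array 2 (0.0636).

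Sums of most marker lists, as well as Id1, separated secondary from primary control L-GMPs. The mature neutrophil genes summed to 45.39 and 48.22 in control secondary and 36.79 and 41.55 in control primary L-GMPs. The dendritic cell genes summed to 34.31 and 34.77 against 32.47 and 33.09, and the immediate early genes to 95.6 and 101.6 against 89.43 and 91.64. The lymphocyte and NK sum was lower in secondary L-GMPs (28.44 and 28.8 against 30.52 and 31.23). So were the stem cell sum (20.47 and 20.67 against 21.93 and 22.15) and the megakaryocyte sum (24.85 and 24.9 against 26.42 and 26.85). The mast cell and basophil and the stromal sums were also lower without overlap. The CMP and GMP, erythroid and monocyte sums overlapped. The part of these genes and their cells in the Id1 level was not tested. The Id1 difference lost its call without control secondary array 1 (0.66, adjusted p = 0.228) or control primary array 2 (0.87, 0.173), with array weights (0.177), with high Xist as a covariate (0.0752) and with these arrays alone (0.439). Of the 8 members, 6 did not overlap between these 2 arrays a side, against 41.5% of all genes. Id2 was at 7.98 and 8.01 in secondary and 6.43 and 4.93 in primary control L-GMPs, a change of 2.32 ± 1.10 that did not pass (adjusted p = 0.228).

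Smad7, Tgfbr2 and Skil fell in control L-GMPs relative to the MLL-AF9 KO progenitors without leukaemia. These progenitors differ from them in genotype, in leukaemia and in sorted cell type (KSLs and CMPs, not GMPs), which cannot be told apart. Smad7 fell by 0.85 (adjusted p = 0.0269), Tgfbr2 by 0.84 (0.00573) and Skil by 0.74 (0.0331), where 10.5% of genes fell. The monocyte, neutrophil, erythroid and megakaryocyte sums given above separate the same arrays, and their part in these falls was not tested. The arrays overlapped for all 3 of these genes. Id1 was the sole member of the 8 whose arrays did not overlap, against 7.73% of all genes. With array weights, with high Xist as a covariate, and with the compared arrays fitted alone, all 3 lost their calls, at adjusted p of 0.052 to 0.323. Smad7 lost its call without control primary array 1 or 2, control secondary array 2 or MLL-AF9 KSL array 2 (0.0509 to 0.125), and Skil without control primary array 2, either control secondary array, MLL-AF9 KSL array 2 or MLL-AF9 CMP array 3 (0.0641 to 0.161). Without MLL-AF9 KSL array 2 Smad7 changed by -0.45 and Skil by -0.47. Of 17 alternatives, Smad7 passed under 9, Tgfbr2 under 13 and Skil under 8. Without recipient 9, Smad7 fell by 1.38, Tgfbr2 fell by 0.58 and Skil fell by 1.11, each past the threshold. In KO L-GMPs, against the same progenitors, Tgfbr2 was the sole member to fall (log2 change -1.195, adjusted p = 0.00127), where 5.93% of genes fell, and its arrays did not overlap, as for 2 of 8 members against 12.6% of all genes. This call was kept under 14 of 17 alternatives. It was lost with KO L-GMPs averaged to 1 sample and with the compared arrays alone (0.161). Without the KO primary array Tgfbr2 fell by 0.77. Sorted cell type and leukaemia cannot be told apart between KO L-GMPs and these progenitors either. Against control GMPs, which share the genotype, Smad7, Tgfbr2 and Skil in control L-GMPs changed by -0.07, 0.15 and -0.12, with adjusted p of 0.656 to 0.899.

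The other pathway genes were counted in the same comparisons. In control L-GMPs against the MLL-AF9 KO progenitors, 2 of 68 rose and 15 fell, or 25.0%, where 19.0% of all genes passed. Among the E proteins and partners, Hes1, a Notch target repressor, fell by 2.15, the haematopoietic regulator Tal1 by 0.98 and Ldb1 by 0.90, while Ascl2 rose by 0.55. Tsc22d1 fell by 2.07 and Klf10 by 0.60 among the targets, and the activin receptor gene Acvr1b by 1.10. In KO L-GMPs against the same progenitors, 2 of 68 rose and 7 fell, or 13.2%, the same share as the 13.2% of all genes that passed. Hes1 fell by 2.17 and Tal1 fell by 1.19. In control L-GMPs against control GMPs 2 rose and 7 fell, against a background of 25.3%, led by Tgfbi, which fell by 2.06.

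Skil and Id3 fell in KO CMPs carrying MLL-AF9 relative to KO CMPs without it. Skil was at 5.98, 6.503 and 6.67 in MLL-AF9 KO CMPs, against 7.71 to 8.44 in KO CMPs, and fell by 1.79 (adjusted p = 0.00163). Id3 was at 4.43, 4.43 and 6.03 in MLL-AF9 KO CMPs, against 6.37 to 7.44 in KO CMPs, and fell by 2.04 (adjusted p = 0.00256). The highest of these, 6.03, was on the array of recipient 4, whose megakaryocyte genes stood apart. These 2 of 8 members fell where 4.88% of genes passed and 3.36% fell. The arrays of 3 of 8 members did not overlap, against 16.3% of all genes, the other being Smad7 at 6.40, 7.20 and 7.04 in MLL-AF9 KO CMPs, against 7.29 to 7.76 in KO CMPs (-0.60 ± 0.29, adjusted p = 0.265). Id3 lost its call with the 7 arrays fitted alone (0.0915). Both Skil and Id3 lost theirs with a replicate block, under which no gene was called. Skil passed under 14 of 15 alternatives and Id3 under 13 of 15. Without recipient 9, Skil fell by 1.58 (0.00186) and Id3 by 1.77 (0.0105).

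Klf10 also changed in this comparison, with a log2 change of -1.43 ± 0.18 (adjusted p = 0.000925). With Acvr1b, which fell by 0.97, and Trim33, which fell by 0.49, it made up the 3 of 68 pathway genes that fell, while 0 rose. The 11 immediate early genes summed to 100.4 to 107.9 in MLL-AF9 KO CMPs, against 102.9 to 108.7 in KO CMPs, and their part in the fall of Skil and Id3 was not tested. The groups also differ in culture, transduction and transplantation, and no array batch was used here, so MLL-AF9 and these steps cannot be told apart. Of the sort markers, c-kit (Kit) was at 9.45 to 10.30, Cd34 at 7.99 to 8.73 and Fcgr3 at 4.67 to 6.72 on the MLL-AF9 KO CMP arrays, against 9.45 to 9.78, 9.98 to 10.35 and 7.24 to 8.64 on the KO CMP arrays. Cd34 and Fcgr3 did not overlap between the groups. The 6 CMP and GMP genes summed to 39.58 to 43.15 in MLL-AF9 KO CMPs, against 48.92 to 52.17 in KO CMPs, and the 6 mature neutrophil genes to 29.45 to 32.78, against 26.55 to 29.03. The part of these differences in the fall of Skil and Id3 was not tested.

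Id2 and Tgfbr1 were among the members that differed more between recipients than between cell types. Id2 was at 9.45, 6.85 and 5.49 in MLL-AF9 KO CMPs of recipients 9, 11 and 4, against 11.30 and 7.33 in KSLs of recipients 9 and 11. Tgfbr1 was at 8.06, 7.09 and 6.66 in these CMPs, against 9.00 and 7.55 in the KSLs. In both cell types the array of recipient 9 was the highest, and within both shared recipients the CMPs were below the KSLs for both genes. The changes, -2.05 ± 1.00 for Id2 (adjusted p = 0.263) and -1.001 ± 0.35 for Tgfbr1 (0.123), did not pass, and 0 of the 8 members did, where 3.32% of genes passed. The arrays of all 8 members overlapped between these CMPs and KSLs, while those of 19.4% of all genes did not. With the recipient as a block, which the labels give as the shared animal, limma called 0 genes (616 at an unadjusted p below 0.05). Without the KSL array of recipient 11, Id2 fell by 4.04 (adjusted p = 0.016), Tgfbr1 fell by 1.73 (0.00372) and Smad7 rose by 1.34 (0.00574), with KSLs then represented by recipient 9 alone. Without the CMP array of recipient 9, Tgfbr1 fell by 1.40 (0.023).

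**Figure D4:**
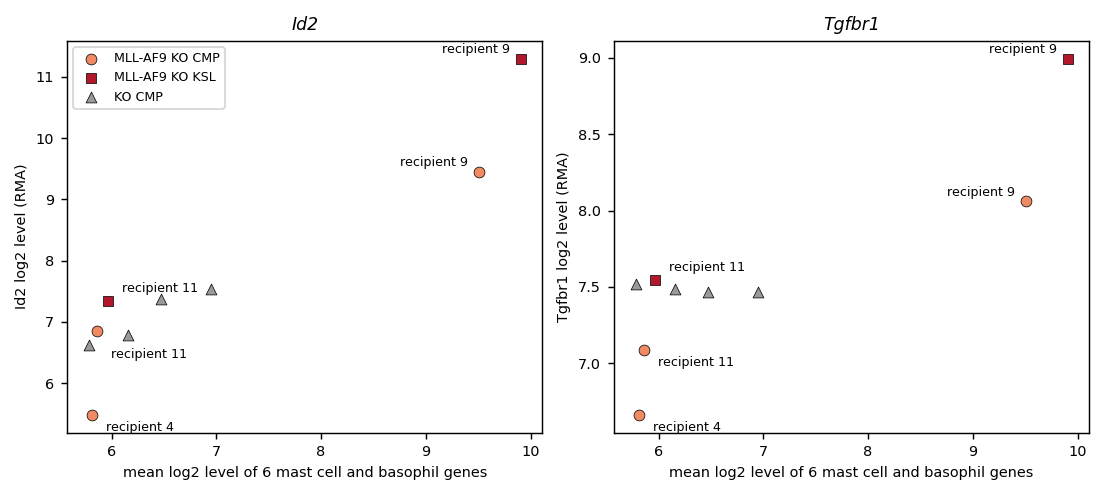
Log2 levels of Id2 (left) and Tgfbr1 (right) on the y axes against the mean log2 level of 6 mast cell and basophil genes on the x axes, for MLL-AF9 KO CMPs, MLL-AF9 KO KSLs and KO CMPs, with points as arrays and recipients numbered. Both genes are highest on the 2 arrays of recipient 9, where the mast cell and basophil genes are highest. Control and L-GMP arrays are not plotted and did not share this pattern. Control CMPs had a mean of 7.46 to 8.37 for these genes and Id2 at 5.96 to 6.87. KO L-GMPs had a mean of 5.18 to 5.36 and Id2 at 7.79 to 9.04.

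Comparisons that use recipient 9 changed for Id2 and Tgfbr1 when its arrays were left out, a step chosen after the data were seen. In KO L-GMPs against the MLL-AF9 KO progenitors, Id2 changed by -0.0026 with these arrays (adjusted p = 1) and rose by 1.54 (adjusted p = 0.031) without them. In control L-GMPs against the same progenitors, Id2 changed by -1.45 with them (adjusted p = 0.189) and by 0.09 without them (0.917). In MLL-AF9 KO CMPs against KO CMPs, Tgfbr1 changed by -0.22 with them and fell by 0.61 (adjusted p = 0.0106) without them. Smad7 in KO L-GMPs against these progenitors changed by -0.52 with them (adjusted p = 0.279) and fell by 1.05 (0.000471) without them. Leaving out single arrays also made calls in the 2 comparisons of L-GMPs with these progenitors. In control L-GMPs without the KSL array of recipient 11, Id2 fell by 2.44 (0.0183) and Tgfbr1 fell by 0.83 (0.0155), and without the CMP array of recipient 11, Id3 fell by 0.83 (0.0448). The part of mast cells or basophils in these levels was not tested.

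Smad6 was the least variable member and passed the test in none of the 10 comparisons. Its arrays lay between 4.28 and 4.97, near the low end of the scale, where the RMA method compresses changes. Its lowest group was control primary L-GMPs at 4.37 and 4.45. Across the 8 members and 10 comparisons, 16 of 80 results passed the threshold, where 1.05% to 25.3% of all genes passed per comparison. The comparisons share arrays, so these results are not separate. Of these, 3 passed it under every alternative run: Skil and Id3 in KO CMPs, and Id1 in control L-GMPs against the MLL-AF9 KO progenitors.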

How the data were processed

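RNA was amplified with a kit for small inputs and hybridised to Affymetrix arrays, per the labels' protocols. The authors deposited log2 expression values for 34760 probe sets. RMA is the method in the submitters' processing notes, and its version was not given there. RMA equalises the distributions of the arrays and compresses changes of dim genes. The number of arrays limits the precision. Gene symbols were read from the array's annotation table, in which 21640 probe sets carried a single symbol, 1321 more than 1 symbol and 11799 no listed symbol. Each of 954 genes with more than 1 probe set was represented by that of highest mean, which left 19937 genes. Of 253 pairs of arrays the closest correlated at 0.991, so none was a copy of another. Each array counted as 1 sample, although the KO L-GMP arrays share a leukaemia and some MLL-AF9 KO arrays share a recipient.

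Arrays were grouped by the labels, and group means of all 23 arrays were fitted with limma 3.58.1 in R 4.3.3 (empirical Bayes with a trend). The fit was checked on simulated independent arrays with the same spread in every group. The check therefore does not cover the unequal spread of the real groups or arrays that share a leukaemia or recipient. Calls have a Benjamini-Hochberg adjusted p below 0.05 over all genes. Primary and secondary L-GMPs, and MLL-AF9 KSLs and CMPs, entered contrasts with equal weight per group. The members and lists were chosen with earlier results of these data known. Named genes are the members, Cebpa, the 2 genes most like each member by Pearson's r over the 9 group means (mean level at least 5, range at least 1; predicted and Y-linked genes and Xist left out), and up to 3 changed genes per list. Recipients 9 and 11 gave both CMPs and KSLs, whose deviations correlated at 0.45 and 0.26. The alternatives were array weights, no prior trend, median centring, a level filter, high Xist as a covariate, the compared groups alone, a replicate block, KO L-GMPs averaged, and single arrays or recipient 9 left out.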

Additional observations from a re-analysis of the deposited data

Results flagged for a closer look

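Tgfbr2 was singled out because its change in KO against control samples differed between L-GMPs and CMPs in a test of the difference itself. The KO change in L-GMPs minus that in CMPs was -1.1771 on the log2 scale (SE 0.30, adjusted p = 0.0475). The change was -0.35 in L-GMPs, in which the 3 KO arrays are 1 leukaemia, and 0.83 in CMPs. Without the KO primary L-GMP array, at 5.50 for Tgfbr2, the difference was -0.75. None of 18 sets of 4 arrays tested held an outlying array by Dixon's criterion. These sets were the members and Cebpa in KO and in control CMPs. Groups of fewer than 4 arrays could not be tested, so no L-GMP array was checked in this way.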

How the results depend on the processing

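Of the 16 member results past the threshold, all 16 kept their sign under every alternative run, and 3 stayed past it under all of them. Among results past the threshold in the fit or in the alternative, the 1 that changed sign was Id2 in KO L-GMPs against the MLL-AF9 KO progenitors, at 1.536 without recipient 9, chosen after the data were seen. In control GMPs against CMPs, array weights brought Id3 (adjusted p = 0.049), Tgfbr2 (0.0134) and Skil (0.0164) past the threshold. Counts of called genes moved more, and the cause was not tested. With array weights they were 3762 for KO against control CMPs, 1257 for GMPs against CMPs, 1250 for control L-GMPs against the MLL-AF9 KO progenitors, 3 for MLL-AF9 CMPs against KSLs, 151 for secondary against primary L-GMPs, 335 for MLL-AF9 KO against KO CMPs and 1280 for the difference of the knockout effects. With high Xist as a covariate, which takes up 1 degree of freedom, the counts were 593 for KO against control CMPs, 2278 for control L-GMPs against the MLL-AF9 KO progenitors, 937 for secondary against primary L-GMPs, 192 for MLL-AF9 KO against KO CMPs and 245 for the difference. With the arrays of the compared groups alone they were 3220 for KO against control CMPs, 643 for GMPs against CMPs, 11 for KO against control L-GMPs, 493 for control and 347 for KO L-GMPs against the MLL-AF9 KO progenitors, 443 for MLL-AF9 KO against KO CMPs, 3258 for control L-GMPs against GMPs and 1582 for the difference. They were 0 in limma for MLL-AF9 CMPs against KSLs (1066 at an unadjusted p below 0.05) and for secondary against primary L-GMPs (2228). With a replicate block added, the counts were 2220 for KO against control CMPs, 128 for control and 38 for KO L-GMPs against the MLL-AF9 KO progenitors and 908 for the difference. The block left 0 in limma for GMPs against CMPs (3358 at an unadjusted p below 0.05), KO against control L-GMPs (2013), MLL-AF9 CMPs against KSLs (616), secondary against primary L-GMPs (1543), MLL-AF9 KO against KO CMPs (2143) and control L-GMPs against GMPs (4377). Member calls made in these comparisons without the block were thus lost with it. Apart from MLL-AF9 CMPs and KSLs, the samples share only a replicate number: same-numbered KO and control CMPs had correlations of their deviations of -0.205 to 0.0772. With KO L-GMPs averaged to 1 sample the counts were 90 for KO against control L-GMPs, 952 for KO L-GMPs against the MLL-AF9 KO progenitors and 159 for the difference. Leaving out 1 array at a time gave counts from 530 to 817 for KO against control CMPs, 70 to 196 for GMPs against CMPs, 409 to 2449 for KO against control L-GMPs, 2833 to 4922 for control and 1947 to 3276 for KO L-GMPs against the MLL-AF9 KO progenitors, 355 to 2850 for MLL-AF9 CMPs against KSLs, 366 to 3074 for secondary against primary L-GMPs, 490 to 2035 for MLL-AF9 KO against KO CMPs, 2764 to 6494 for control L-GMPs against GMPs and 383 to 1603 for the difference. Where this left a group with 1 array, its spread was taken from the other groups. Smad6, with a mean level below 5, has no value under the level filter.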
